A study of Homo sapiens with 6 samples.

Results

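A set of 5 small structured RNAs made by RNA polymerase III, 7SK, RN7SL1, RN7SL2, RMRP and RPPH1, was measured in SK-N-AS neuroblastoma cells with and without induction of MYCN. The 5 genes were chosen by name among the 60651 genes of the count tables, and 7SK was taken only from the entry ENSG00000202198. The SK-N-AS line is established and comes from a human neuroblastoma, a tumour of the sympathetic nervous system in children. All cells carried a tetracycline repressor and a MYCN gene that tetracycline switches on, and the lines were kept as single clones under G418 and Blasticidin. The 3 control libraries, labelled ETOH, came from cells without tetracycline and the 3 MYCN-induced libraries, labelled Tet, from cells with it, at 120 h by the titles and 5 days by the treatment notes. Total RNA was depleted of ribosomal RNA by enzymatic digestion and sequenced as read pairs. The methods describe 3 independent biological replicates for experiments in culture.

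RNA polymerase III transcribes short untranslated genes such as tRNAs, 5S rRNA and U6, and a few longer RNAs that act as the core of a ribonucleoprotein. Among these, 7SK holds the elongation kinase P-TEFb in an inactive complex, 7SL (encoded by RN7SL1, RN7SL2 and RN7SL3) is the RNA of the signal recognition particle that brings secreted proteins to the endoplasmic reticulum, RMRP is the RNA of RNase MRP, which cuts the precursor of ribosomal RNA, and RPPH1 is the H1 RNA of RNase P, which trims the 5′ leader of precursor tRNAs. MYC family proteins are known to stimulate RNA polymerase III transcription in other cells. The genes of 7SK, RMRP and RPPH1 carry their promoter upstream of the start, with a TATA element, whereas 7SL genes also use elements inside the transcribed part.

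The 3 genes for 7SL RNA are nearly the same sequence, and which of them a read pair is assigned to rests on few bases. They lie on chromosome 14 of GRCh38, RN7SL1 at chr14:49586580-49586878 on the plus strand, RN7SL2 at chr14:49862550-49862849 on the minus strand and RN7SL3 at chr14:49853616-49853914 on the minus strand. Over the 299 positions compared, RN7SL1 and RN7SL2 differed at 4, an identity of 98.7%, and their longest identical stretch was 205 bases. RN7SL3 differed from RN7SL1 at 7 positions and from RN7SL2 at 11. The file headers name unique alignments, whereas the methods list multimapping options, and how pairs that lie wholly inside a stretch shared by these genes were treated was not tested.

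The bases before each annotated start are shown because the members fall into 2 kinds there. In the 60 bases upstream of the start, read 5′ to 3′ on the gene's own strand in GRCh38, capitals mark matches on either strand to the TATA motifs (TATAA and the longer TATATA, both searched) and, for the 7SL genes, to TGACGT.
7SK: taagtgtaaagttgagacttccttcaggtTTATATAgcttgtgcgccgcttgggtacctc
RMRP: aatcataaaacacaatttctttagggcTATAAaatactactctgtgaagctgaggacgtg
RPPH1: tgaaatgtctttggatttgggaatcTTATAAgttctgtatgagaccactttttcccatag
RN7SL1: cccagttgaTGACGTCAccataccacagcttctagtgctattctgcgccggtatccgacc
RN7SL2: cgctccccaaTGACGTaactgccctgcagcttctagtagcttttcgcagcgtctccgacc
With the first transcribed base at 1, TATATA began at -30 of 7SK, where it overlapped TATAA on the other strand. TATAA began at -33 of RMRP and at -34 of RPPH1, where it overlapped its own reverse match. Neither 7SL gene among the members held TATAA or TATATA in its window from 250 bases before to 50 after the start. TGACGT, the core of the element bound by ATF and CREB proteins, lay at -51 of RN7SL1, where it overlapped its own reverse match, and at -50 of RN7SL2, and further out, at -221 and as its reverse at -219, of RPPH1. The octamer ATTTGCAT was found at -217 of RMRP and at -101 of RPPH1, and the E-box CACGTG in none of the 5 windows. Of 35116 RefSeq windows of the same length on GRCh38, 20.4% held TATAA, 3.99% TATATA, 7.98% TGACGT, 1.77% ATTTGCAT and 7.26% CACGTG. A run of at least 4 T, the usual stop signal of RNA polymerase III, was searched only within 15 bases of each annotated end. Runs that stopped short of the last bases of a gene were passed over. The first run kept began between 3 bases before and 2 bases after the annotated end of each member and held 4 to 6 T. A place near the end was thus built into the search, and the rest of each gene was not searched.

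The libraries held between 64500589 and 102249336 counted pairs. MYCN was at 30.3, 35.5 and 32.4 CPM (counts scaled to a common library size after normalization by the trimmed mean of M values, TMM) in the controls and at 211, 221 and 199 CPM in the induced libraries, a log2 fold change of 2.68 (SE 0.08, edgeR adjusted p = 4.16e-05). Of the neuroblastoma markers shown, the noradrenergic HAND2 (349 to 559 CPM) and GATA3 (99.9 to 144) stood high in every library, PHOX2A (5.92 to 18.3) and DBH (3.23 to 9.20) low, and tyrosine hydroxylase (TH) lowest, at 0.662 to 1.58 CPM. Of the mesenchymal markers VIM lay at 360 to 474 CPM, FN1 at 28.4 to 60.5, FOSL1 at 9.49 to 36.9 and PRRX1 at 4.23 to 10.5, while PTPRC of blood cells and EPCAM of epithelium stayed under those of both kinds except TH, at 1.19 to 2.07 and 0.290 to 0.593 CPM. Control replicate 1 and MYCN-induced replicate 3 stood apart. The chi-square per gene between replicates was 12.1 for controls 2 and 3 and 23.2 for induced libraries 1 and 2, but 48.3 to 83.2 for pairs with control 1 and 74.4 to 146 for pairs with induced 3. This mean over tested genes gives most weight to genes with many pairs, and RN7SL3 and the members were kept in it. Results are therefore given with and without these 2 libraries, a choice made after their values were seen.

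The 5 RNAs were among the most abundant entries, ranking from 4 for 7SK to 73 for RPPH1 by pairs on a single entry. Together they took 3.23, 4.07 and 4.24% of all counted pairs in controls 1, 2 and 3, and 3.49, 2.75 and 4.36% in induced libraries 1, 2 and 3. The means were 3.85% ± 0.542 (SD, n = 3) and 3.53% ± 0.809 (SD, n = 3), and the groups overlapped (two-sided exact permutation p = 0.7, with 0.1 the smallest p that 3 against 3 libraries can give). These shares understate the RNA of 4 members, because the annotation lists a second gene over the same exon and the counting shared each pair between both entries in equal fractions. RN7SK covers 328 of the 331 bases of 7SK, and ENSG00000269900 all 264 bases of RMRP, and each held exactly the count of its partner in every library. ENSG00000282885 covers RN7SL2 and ENSG00000259001 covers RPPH1, with counts within 52 and 72.8 pairs of the member's. With the second entries added, the 5 RNAs took 4.81 to 7.38% of all pairs, and RN7SL1 was the member whose exon no second gene covers.

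Per kilobase of gene length and with second entries added, 7SK stood highest and RPPH1 lowest in all 6 libraries. In controls the levels were 101205 ± 31198 CPM per kilobase for 7SK, 46773 ± 2523 for RN7SL1, 31465 ± 5443 for RN7SL2, 13643 ± 5902 for RMRP and 4942 ± 1640 for RPPH1 (mean ± SD, n = 3). This order held within each of the 6 libraries. Neighbours in the order were least separated for RN7SL1 and RN7SL2 in induced replicate 3, at 48213 and 45500 CPM per kilobase, and for RN7SL2 and RMRP in induced replicate 2, at 16865 and 14955. Across the induced libraries the ranges of RN7SL1 and RN7SL2, and of RN7SL2 and RMRP, overlapped, whereas in the controls no 2 neighbours did. Over all 60651 genes and with single entries, 7SK ranked 2 per kilobase behind its own second entry and RN7SL1 ranked 3.

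None of the 5 RNAs passed the test between MYCN-induced and control cells, and their normalized levels overlapped between the groups in every case. With edgeR's quasi-likelihood test 0 of 5 had an adjusted p under 0.05, where 3.40% of the 29086 genes tested did, and 0 of 5 had an unadjusted p under 0.05, where 18.7% did. DESeq2 called 0 of 5, against 7.23% of all genes. The log2 fold changes ran from -0.40 for RN7SL1 to 0.33 for RMRP, with 2 above 0 and 3 below, and the median over all genes was -0.00. In CPM no member separated the groups completely, as 26.3% of all tested genes did, and in share of all counts 1 member did, RN7SL1, where 25.0% of tested genes did. A p above the threshold does not show that the levels were the same, and the intervals below give the changes that remain possible. Shares and CPM are relative to the other RNAs of a library, the 92 listed spike-in sequences had 0 counts, and in bulk RNA fewer cells with an RNA and less of it per cell cannot be told apart.

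**Figure D1:**
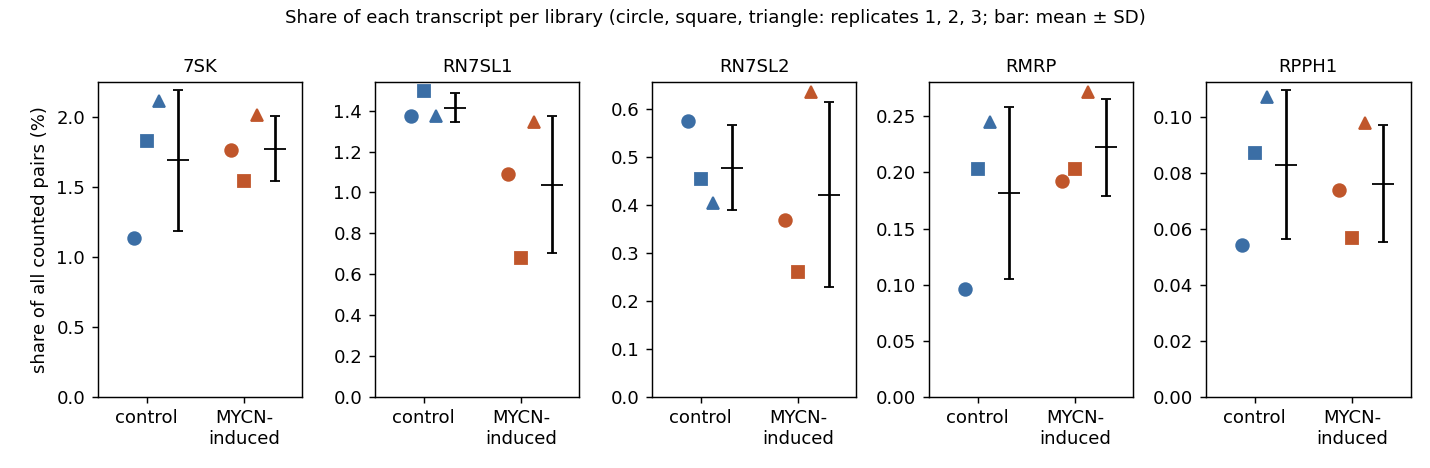
Share of all counted pairs (%, y axis, starting at 0) of each of the 5 RNAs in the 3 control (blue) and 3 MYCN-induced (orange) libraries, with the mean and SD as a black bar. RN7SL1 is the only panel in which every induced library, at most 1.34%, lies under every control, at least 1.37%, and control replicate 1 is the lowest control for 7SK, RMRP and RPPH1.

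7SK, the scaffold of the complex that holds back P-TEFb, was counted with 1137547 to 2141383 pairs per library on its own entry (chr6:52995620-52995950, plus strand). Its share was 1.13, 1.83 and 2.11% of all pairs in controls 1, 2 and 3, and 1.76, 1.55 and 2.01% in induced libraries 1, 2 and 3. Control replicate 1 was the lowest of the 6 and control replicate 3 the highest, with all 3 induced libraries between them. The log2 fold change was 0.11 (SE 0.23, edgeR adjusted p = 0.856), with a 95% confidence interval from a fold of 0.743 to 1.56. It turned to -0.12 without control replicate 1 (adjusted p = 0.79) and to -0.04 without induced replicate 3 (adjusted p = 0.948). The mean share was 1.69% ± 0.505 in controls and 1.77% ± 0.234 in induced cells (SD, n = 3, two-sided exact permutation p = 0.9).

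The 7 protein partners of 7SK on a list written for this comparison were all tested and none was called by edgeR or DESeq2, also at an unadjusted p under 0.05. Of all tested genes edgeR called 3.40% and DESeq2 7.23%, and 18.7% had an edgeR unadjusted p under 0.05. The median log2 fold change of the 7 was 0.00, and their range was narrow. HEXIM1, the protein through which 7SK inhibits P-TEFb, had the lowest value, -0.21 (SE 0.10, edgeR adjusted p = 0.309). MEPCE, which caps the 5′ end of 7SK, had the highest, 0.11 (SE 0.09, adjusted p = 0.596). LARP7, which binds its 3′ end, was at 64.8, 65.3 and 66.5 CPM in the controls and at 65.7, 66.4 and 63.9 CPM in the induced libraries, a log2 fold change of -0.00 (SE 0.06). The kinase CDK9 and the cyclins CCNT1 and CCNT2 lay between -0.00 and 0.04.

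RN7SL1, one of the genes for the RNA of the signal recognition particle, was counted with 615006 to 1403374 pairs. Its share was 1.37, 1.498 and 1.37% in controls 1, 2 and 3 and 1.09, 0.679 and 1.34% in induced libraries 1, 2 and 3. All 3 induced libraries were under all 3 controls on this scale, replicate 3 by a small margin. The mean share was 1.41% ± 0.0719 in controls and 1.04% ± 0.335 in induced cells (SD, n = 3), a ratio of 0.733, with a two-sided exact permutation p of 0.1, the smallest the design allows. On the TMM scale induced replicate 3 reached 14416 CPM against 13397 to 14836 in the controls, so that the groups overlapped there. They also overlapped as a share of protein-coding counts off the mitochondrial genome, and on both scales the two-sided exact permutation p was 0.3. The log2 fold change was -0.40 (SE 0.24, edgeR adjusted p = 0.434), with a 95% confidence interval from a fold of 0.516 to 1.11. It stayed below 0 without any 1 library, from -0.68 without induced replicate 3 to -0.15 without induced replicate 2.

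RN7SL2, whose transcript differs from that of RN7SL1 at 4 positions, was counted with 235811 to 588950 pairs on its own entry. Its share was 0.576, 0.455 and 0.404% in controls 1, 2 and 3 and 0.369, 0.260 and 0.636% in induced libraries 1, 2 and 3. Induced replicate 3 was the highest of all 6 and the other induced libraries were the lowest 2. The log2 fold change was -0.12 (SE 0.32, edgeR adjusted p = 0.888), with a 95% confidence interval from a fold of 0.548 to 1.54. It turned to 0.02 without control replicate 1 and to 0.15 without induced replicate 2, and it was -0.60 without induced replicate 3 (adjusted p = 0.0963, in a fit that called 8.12% of all genes).

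RN7SL3, the third functional 7SL gene, is not one of the 5 RNAs but differs from RN7SL1 at only 7 positions. Its count split the libraries without regard to treatment. It held 489740 pairs in control replicate 1 and 511468 in induced replicate 3, but 3288 and 3722 in controls 2 and 3 and 2313 and 1747 in induced libraries 1 and 2. The lower of the 2 high libraries exceeded the highest of the other 4 by 132-fold. Its log2 fold change of 0.36 had an SE of 2.23 (edgeR adjusted p = 0.955), and DESeq2 gave it no p. Both high libraries are the ones with the larger chi-square per gene against their replicates, but RN7SL3 itself and the 5 RNAs enter that mean. Whether the 2 libraries stand apart without these genes was not tested. What set RN7SL3 in these 2 libraries was not tested.

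**Figure D2:**
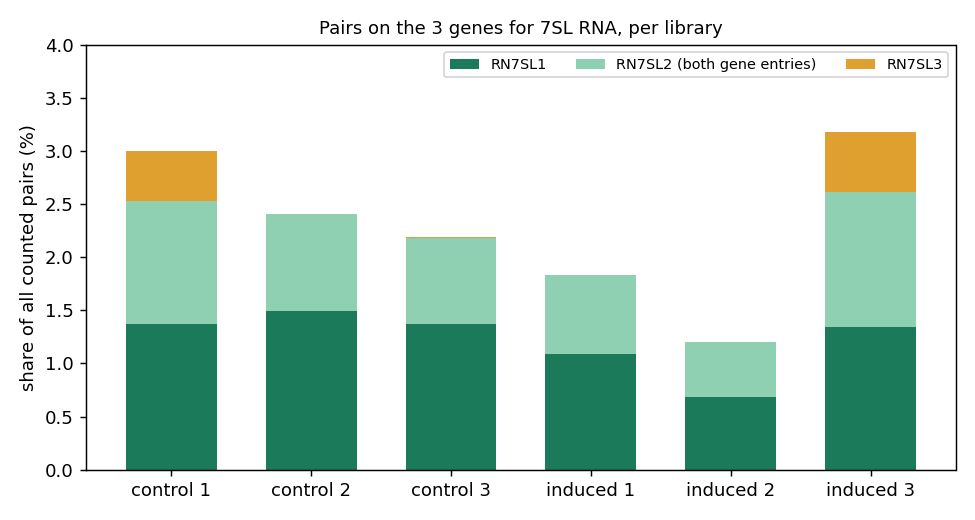
Stacked share of all counted pairs (%, y axis) on RN7SL1, on RN7SL2 with the second entry over it, and on RN7SL3, for each of the 6 libraries. RN7SL3 is visible only in control 1 and induced 3, where it adds 0.479 and 0.562% and where the stack is tallest, at 3.004 and 3.18%.

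Summed over the 3 genes and the second entry of RN7SL2, 7SL RNA took 3.004, 2.41 and 2.19% of all pairs in controls 1, 2 and 3, and 1.83, 1.20 and 3.18% in induced libraries 1, 2 and 3. Induced replicate 3 was above every control and the other 2 induced libraries below every control. The summed log2 fold change was -0.23 (SE 0.34, edgeR adjusted p = 0.777). Without induced replicate 2 it was 0.06, without induced replicate 3 it was -0.73 (adjusted p = 0.0678), and without both libraries with high RN7SL3 it was -0.61 (SE 0.17, adjusted p = 0.058). The sum was formed after the values were seen.

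The split of the 7SL pairs among the genes was compared within each library. The ratio of RN7SL1 to RN7SL2 pairs, single entries, was 2.38, 3.30 and 3.40 in controls 1, 2 and 3 and 2.95, 2.61 and 2.11 in induced libraries 1, 2 and 3. The 2 lowest ratios belonged to the 2 libraries with high RN7SL3. Means were 3.03 ± 0.560 and 2.56 ± 0.421 (SD, n = 3, two-sided exact permutation p = 0.3). With RN7SL3 counted in, RN7SL2 and its second entry made up 38.4, 37.7 and 37.0% of the 7SL pairs in the controls and 40.3, 43.3 and 40.03% in the induced libraries. Here the groups did not overlap, at 37.7% ± 0.697 and 41.2% ± 1.83 (SD, n = 3, two-sided exact permutation p = 0.1, the smallest possible), a quantity chosen after the values were seen.

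The protein side of the signal recognition particle was measured with 8 genes, the 6 subunits and both chains of its receptor, and edgeR called none of them, where it called 3.40% of all tested genes. At an unadjusted p under 0.05 there were 2, both higher, where 18.7% of all tested genes passed, and DESeq2 called 1 higher, where it called 7.23% of all genes. That gene was SRPRB, the membrane-bound chain of the receptor, at 31.8, 31.99 and 31.2 CPM in the controls and at 39.1, 37.2 and 40.7 CPM in the induced libraries. Its groups did not overlap, as in 26.3% of all tested genes, with a log2 fold change of 0.30 (SE 0.07, edgeR adjusted p = 0.063, DESeq2 adjusted p = 0.00617). SRP72, a subunit that binds 7SL as a pair with SRP68, had a log2 fold change of 0.16 (SE 0.06, edgeR adjusted p = 0.173), and SRP68 itself -0.03 (SE 0.06). SRP9 and SRP14, the pair on the Alu end of 7SL, were at -0.03 and 0.08, and SRP54, which binds the signal peptide, at 0.11. SRPRA, the other chain of the receptor, had the lowest value, -0.05 (SE 0.08, adjusted p = 0.813). The median of the 8 was 0.09.

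RMRP, the RNA of RNase MRP (chr9:35657754-35658017, minus strand), was counted with 98183 to 248632 pairs on its own entry. Its share was 0.0960, 0.203 and 0.245% in controls 1, 2 and 3 and 0.192, 0.203 and 0.272% in induced libraries 1, 2 and 3. Control replicate 1 was the lowest and induced replicate 3 was the highest. The log2 fold change was 0.33 (SE 0.33, edgeR adjusted p = 0.646), with a 95% confidence interval from a fold of 0.747 to 2.12. Without control replicate 1 it was 0.02 (adjusted p = 0.982) and without control replicate 3 it was 0.62 (adjusted p = 0.441). Controls differed among themselves by 2.61-fold in CPM and induced libraries by 1.53-fold.

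RPPH1, the RNA of RNase P (chr14:20343075-20343407, minus strand), was the least abundant of the 5, with 47820 to 108711 pairs. Its share was 0.0544, 0.0874 and 0.107% in controls 1, 2 and 3 and 0.0741, 0.0566 and 0.0981% in induced libraries 1, 2 and 3. The induced values all lay inside the range of the controls. The log2 fold change was -0.08 (SE 0.29, edgeR adjusted p = 0.923), with a 95% confidence interval from a fold of 0.596 to 1.51. It turned to 0.16 without control replicate 3 and to 0.12 without induced replicate 2.

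RMRP and RPPH1 assemble with largely the same proteins, so that their ratio was set beside them. The ratio of RMRP to RPPH1 pairs was 1.77, 2.33 and 2.29 in controls 1, 2 and 3 and 2.59, 3.59 and 2.77 in induced libraries 1, 2 and 3. The groups did not overlap, with means of 2.13 ± 0.313 and 2.98 ± 0.531 (SD, n = 3, two-sided exact permutation p = 0.1, the smallest possible, and 0.3 after Benjamini-Hochberg adjustment over the 5 ratios computed). This ratio was chosen after the values were seen. The ratio of 7SK to RPPH1 was 20.5 ± 0.673 in controls, including replicate 1, and 23.9 ± 3.39 in induced cells (SD, n = 3, exact permutation p = 0.3).

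Of 11 proteins of RNase P and RNase MRP, 10 were tested and edgeR called none, where it called 3.40% of all tested genes. At an unadjusted p under 0.05 there were 2, both higher, against 18.7% of all tested genes, and DESeq2 called 1 higher, against 7.23%. That gene was POP1, the largest shared subunit, at 33.0, 34.1 and 33.4 CPM in controls and at 51.8, 58.4 and 39.2 CPM in induced libraries, a log2 fold change of 0.57 (SE 0.14, edgeR adjusted p = 0.0674, DESeq2 adjusted p = 0.0064). All 3 induced libraries were above the controls, where 26.3% of all tested genes had groups without overlap. POP4 had 0.25 (SE 0.10, edgeR adjusted p = 0.228) and RPP40 0.18 (SE 0.09, adjusted p = 0.354). RPP25L had the lowest value, -0.06 (SE 0.13, adjusted p = 0.852). The median of the 10 was 0.15.

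**Figure D3:**
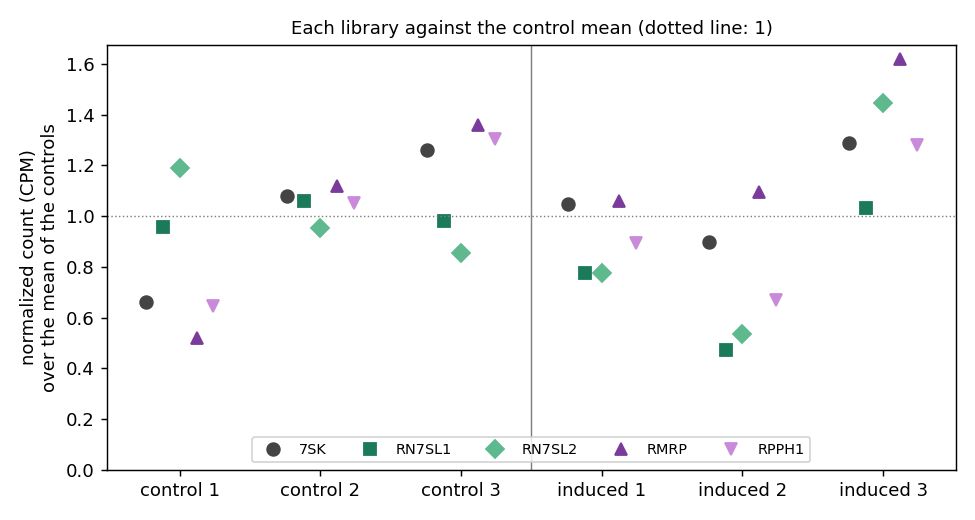
Normalized count (TMM CPM) of each of the 5 RNAs in each library, divided by the mean of the 3 controls (y axis, starting at 0, dotted line at 1). In control 1, 7SK, RMRP and RPPH1 lie between 0.520 and 0.660 while RN7SL1 and RN7SL2 lie at 0.958 and 1.19, and in induced 2 both 7SL genes lie at 0.472 and 0.536.

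The 5 RNAs did not vary as 1 block across libraries. Likeness was measured as the root mean square difference of log2 CPM over the 6 libraries, each gene centred on its own mean, so that 0 is an identical profile. Among the members 7SK was closest to RPPH1, at 0.16, and to RMRP, at 0.22, whereas RN7SL1 was closest to RN7SL2, at 0.25. RMRP and RPPH1 lay 0.31 apart, not far under the smallest distance between a 7SL gene and one of the other 3. Those distances ran from 0.36 to 0.70, the largest between RN7SL2 and RMRP. A flat profile would lie 0.33 from 7SK and 0.51 from RMRP. These figures describe 6 libraries that share their depth and scaling for all genes.

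Among 18530 other genes with a mean of at least 1 CPM, the closest profile to 7SK, RN7SL2, RMRP and RPPH1 was each one's own second entry, at 0.00. After these came ENSG00000267740 and RPL13AP5 for 7SK, both at 0.07. LINC00622 (0.06) and ENSG00000261888 (0.11) followed for RN7SL2, PHOX2A and FAM174C for RMRP, both at 0.10, and ODAD3 and PCAT6 for RPPH1, both at 0.12. For RN7SL1 the 3 closest were CD177 (0.07), ENSG00000284779 (0.08) and IGF2 (0.09). PHOX2A encodes a transcription factor of noradrenergic neurons and IGF2 a growth factor.

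**Figure D4:**
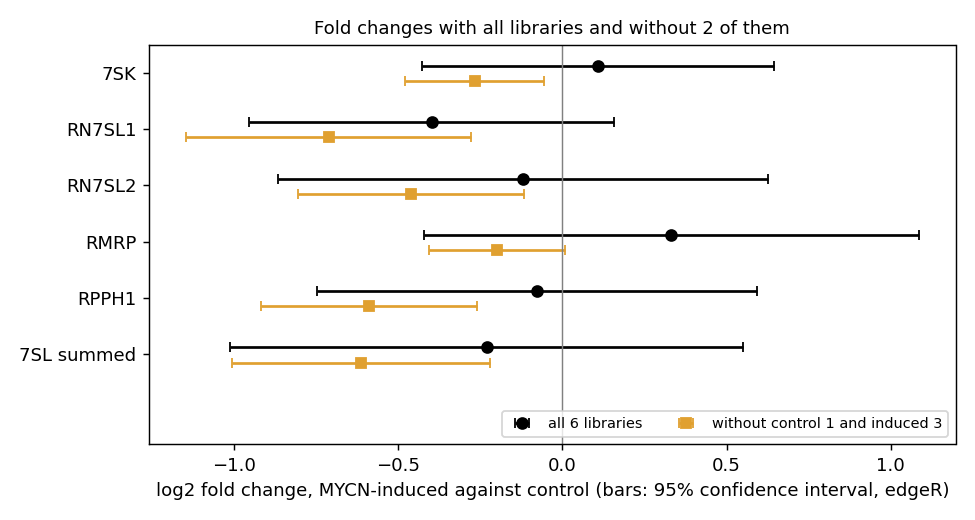
Log2 fold change between MYCN-induced and control cells (x axis) of the 5 RNAs and the summed 7SL genes, with its 95% confidence interval. Black circles show all 6 libraries and yellow squares the fit without control 1 and induced 3. Intervals were computed from the F statistic of the edgeR test. With all libraries every interval includes 0, and without the 2 libraries all 6 values lie below 0, from -0.20 for RMRP to -0.71 for RN7SL1. Induced 3 is the highest induced library for each of the 5 RNAs, so that leaving it out favours lower values.

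Leaving out control replicate 1 and induced replicate 3, the 2 libraries with high RN7SL3, moved all 5 RNAs below 0 and called 1 of them. RPPH1 had a log2 fold change of -0.59 (SE 0.14, edgeR adjusted p = 0.0384), in a fit that called 10.9% of 27926 genes. RN7SL1 was at -0.71 (SE 0.19, adjusted p = 0.0504), RN7SL2 at -0.46 (SE 0.15, adjusted p = 0.0899), 7SK at -0.27 (SE 0.09, adjusted p = 0.106) and RMRP at -0.20 (SE 0.09, adjusted p = 0.195). 7SK and RMRP thereby changed sign. Induced replicate 3 held the highest induced CPM of each of the 5 RNAs. Control replicate 1 held the lowest control CPM of 7SK, RN7SL1, RMRP and RPPH1. Lower values were therefore built into the choice of libraries, and neither the shared direction nor the call of RPPH1 is a separate result. This comparison rests on 2 libraries per group, picked after the levels of RN7SL3 and of the 5 RNAs were known, and an exact permutation test of 2 against 2 cannot go below 0.333. Control replicate 1 also held the lowest CPM of the 6 libraries for some protein genes, such as POLR2E, a subunit shared by the nuclear RNA polymerases, at 46.9 against 66.3 to 79.8. For others it held the highest, such as POLR3A at 107 against 96.6 to 104. How many genes went each way was not counted. The part of whatever set these 2 libraries apart in the levels of the 5 RNAs was not tested.

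Of the genes for other RNAs that RNA polymerase III makes, most had fitted values below 0 and 1 passed the test. Of 19 named, 18 were matched and 12 had enough counts, with a median log2 fold change of -0.32, 9 below 0 and 3 above. RN7SL3 is 1 of these 12 and had the highest value, 0.36 (SE 2.23). The edgeR test called 1 lower, against 2.38% of all tested genes, and none higher, against 1.02%, at an unadjusted p under 0.05 there were 4, all lower, where 18.7% of all genes passed in either direction, and DESeq2 called 3 lower, where it called 7.23% in either direction. RNU6ATAC, the U6-like RNA of the minor spliceosome, fell from 1.002, 0.992 and 0.917 CPM in the controls to 0.416, 0.472 and 0.460 CPM in the induced libraries, a log2 fold change of -1.10 (SE 0.16, edgeR adjusted p = 0.0146). The groups did not overlap, as in 26.3% of all tested genes. The call was lost without any 1 of the control replicates and without induced replicate 1.

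BCYRN1, a brain RNA derived from an Alu element of the 7SL kind, was at 12.97, 13.6 and 13.9 CPM in controls and at 11.5, 7.02 and 6.17 CPM in induced libraries, a log2 fold change of -0.72 (SE 0.22, edgeR adjusted p = 0.127, DESeq2 adjusted p = 0.0335). RNY1, a Y RNA bound by the Ro protein, was at 9.43, 10.7 and 8.51 CPM in controls and at 6.10, 4.53 and 7.80 CPM in induced libraries, -0.64 (SE 0.20, edgeR adjusted p = 0.133, DESeq2 adjusted p = 0.0467). For both, every induced library was under every control. Groups without overlap were found for 4 of the 12 tested genes of this list and for 26.3% of all tested genes. RNU6-2, the U6 gene with the highest count, had -0.38 (SE 0.12, edgeR adjusted p = 0.141), also without overlap. The vault RNAs VTRNA1-1, VTRNA1-2 and VTRNA1-3 had 0.08, 0.07 and -0.05, with adjusted p between 0.891 and 0.942, and RNU6-1, RNU6-7, RNU6-8 and RNU6-9 lay from -0.53 to -0.10, with adjusted p of 0.653 or more.

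Small nuclear RNAs made by RNA polymerase II, taken as short structured RNAs from another enzyme, had a median above 0. Of 18 named genes 15 were tested, with a median log2 fold change of 0.12, 11 above 0 and 4 below. The edgeR test called none, where it called 3.40% of all tested genes. At an unadjusted p under 0.05 there were 2, both lower, against 18.7% of all tested genes in either direction, and DESeq2 called 2 lower, against 7.23%. RNU4-1 and RNU4-2, the genes for the U4 partner of U6, had -0.63 (SE 0.17) and -0.68 (SE 0.18), each with an edgeR adjusted p of 0.0931, and the highest values were RNU11 at 0.33 (adjusted p = 0.326) and RNU5B-1 at 0.31 (adjusted p = 0.639). The difference between the 2 lists was not tested.

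Copies of 7SL and 7SK scattered over the genome, most of them annotated as pseudogenes, held few pairs. Of 1147 such genes 308 were tested, RN7SL3 included, and the other 307 together held between 0.0179 and 0.0203% of the normalized counts of a library, 269 of them with a mean under 1 CPM. RN7SL413P was called higher, with a log2 fold change of 1.27 (SE 0.27, edgeR adjusted p = 0.0464), at 0.286, 0.350 and 0.266 CPM in controls and 0.678, 0.536 and 0.967 in induced libraries. RN7SL652P was called lower, with -1.01 (SE 0.21, adjusted p = 0.0464), at 0.573, 0.620 and 0.532 CPM in controls and 0.308, 0.322 and 0.224 in induced libraries. These were 2 of 308, against 3.40% of all tested genes. Both calls were lost under the replicate block, without any 1 control replicate and without induced replicate 1, and that of RN7SL652P also without induced replicate 2 and with library size only. The median of the 308 was -0.04.

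**Figure D5:**
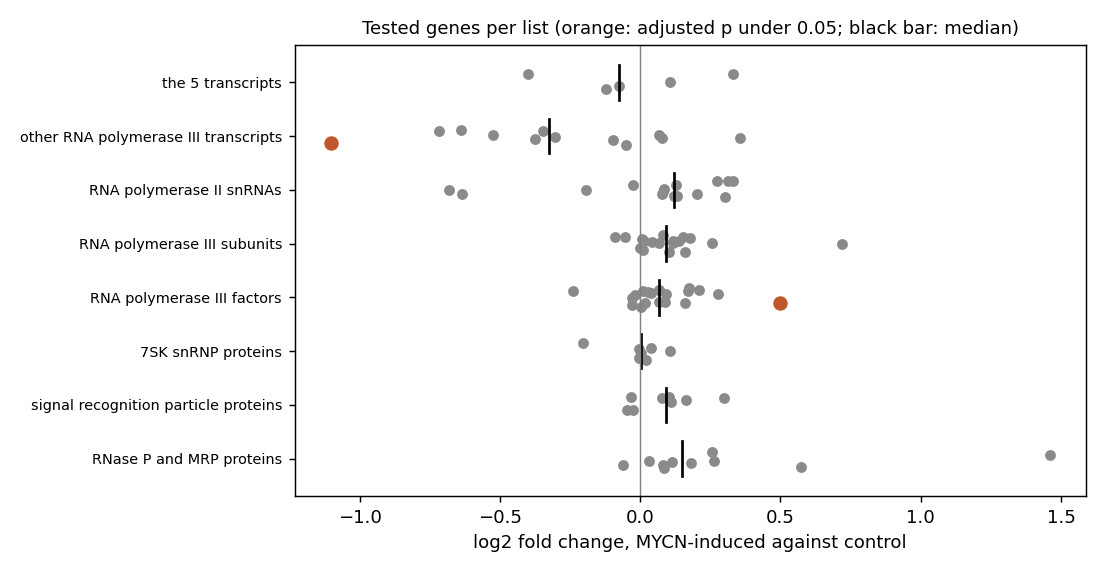
Log2 fold change between MYCN-induced and control cells (x axis) of each tested gene of the 5 RNAs and of 7 lists (rows), with the median of a row as a black bar and genes of adjusted p under 0.05 (edgeR) in orange. The orange points are RNU6ATAC at -1.10 and GTF3A at 0.50, and none of the 5 RNAs is orange.

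No subunit gene of the enzyme that makes the 5 RNAs passed the test. All 18 subunit genes of RNA polymerase III were tested, with a median log2 fold change of 0.09, 15 above 0 and 3 below, and edgeR and DESeq2 called none. Of all tested genes edgeR called 3.40% and DESeq2 7.23%. At an unadjusted p under 0.05 there were 3 of 18, all higher, against 18.7% of all tested genes in either direction. POLR3G, the subunit whose alternative form is POLR3GL, had the largest value, 0.72 (SE 0.27, edgeR adjusted p = 0.21), at 3.58, 3.81 and 3.73 CPM in controls and 6.59, 8.22 and 3.50 CPM in induced libraries. Induced replicate 3 lay below every control, and the other 2 induced libraries well above them. POLR3F followed with 0.26 (SE 0.08, adjusted p = 0.126), and the smallest values were POLR3K at -0.09 (adjusted p = 0.73) and POLR2L at -0.05 (adjusted p = 0.911). The largest subunit, POLR3A, had 0.02 (SE 0.06).

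Of the 20 factors that recruit or restrain RNA polymerase III, GTF3A rose and no other passed the test. GTF3A, known as TFIIIA and specific to 5S rRNA genes, was at 51.3, 50.7 and 48.9 CPM in controls and 70.6, 74.5 and 68.2 CPM in induced libraries, a log2 fold change of 0.50 (SE 0.07, edgeR adjusted p = 0.0106). This was 1 of 20 higher, against 1.02% of all tested genes, and the call was lost without control replicate 2 and without control replicate 3. DESeq2 called 1 factor higher too, where it called 7.23% of all tested genes in either direction. The median of the 20 was 0.07, with 16 above 0. BRF2, the TFIIIB subunit used at upstream promoters like those of 7SK, RMRP and RPPH1, had the lowest value, -0.24 (SE 0.08, adjusted p = 0.184), and BRF1, used at genes with internal elements, had 0.16 (SE 0.19, adjusted p = 0.713). The SNAPC subunits that bind these upstream promoters lay between 0.00 and 0.28, and MAF1, the repressor of the enzyme, at 0.17 (SE 0.14, adjusted p = 0.587).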

How the data were processed

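RNA of 3 control and 3 MYCN-induced SK-N-AS cultures was analysed. The values that the authors deposited are estimated counts of read pairs on the exons of a gene, with no normalization. Per the file headers they used featureCounts 1.6.4 on unique STAR alignments, sharing a pair that overlaps several genes in equal fractions and setting no strand option. The submitters' processing notes name featureCounts 1.5.1 and STAR 2.7.1a on GRCh38, and the methods list multimapping and strand options. Of the identifiers, 99.72% were matched to names. Where genes overlap on opposite strands, their counts are uncertain.

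After rounding to whole numbers, 29086 genes reached 10 counts in 3 or more libraries and entered edgeR 4.0.16 in R 4.3.3 (TMM, quasi-likelihood test, no replicate block, Benjamini-Hochberg over all genes tested, threshold 0.05). Shares and ratios were tested with two-sided exact permutation tests (20 arrangements). DESeq2 1.42.0 and other settings were alternatives. On simulated counts edgeR recovered 91% of 200 genes changed 2-fold. The simulation gave every gene the same dispersion and had no library that stood apart. The members' own spread, from 5.39% of the mean (RN7SL1, controls) to 51.3% (RN7SL2, induced), was not simulated. The 91% is therefore not their power.

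The 5 RNAs and all gene lists were chosen with earlier results of these data known. Of each list, genes past the threshold were named, otherwise the extremes with a mean of at least 1 CPM, all tested RNAs of RNA polymerase III, and direct protein partners. POLR3A, POLR2E, BRF1, MAF1, the SNAPC genes and the cell markers were named outside this rule, after their values were seen. Totals were 64500589 to 102249336 pairs, so that the 95% Wilson interval of a share, which covers counting error only, was within 0.896% of the share for the 5 RNAs and 4.69% for RN7SL3. The spread between libraries set the precision. Replicates differed beyond sampling noise and each was counted as 1 sample. Libraries of the same number correlated in their deviations from the group means at 0.314, 0.0175 and 0.0931. Values for unlike numbers were not set beside these, so they do not settle whether the numbers pair libraries. The main test used no pairing, and the replicate block is given as an alternative. Some sequences and marker genes are not reported here.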

Additional observations from a re-analysis of the deposited data

How the results depend on the processing

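Normalization by library size only or by upper quartile, TMM and totals without the 5 RNAs, DESeq2, the count filters, the replicate block and the denominators of the shares moved no fold change of the 5 RNAs across the threshold or through 0, and no denominator turned a ratio of shares. With 3 against 3 libraries the exact test of a share cannot pass 0.05. With the replicate block, which rests on shared numbers alone, log2 fold changes were 0.14 for 7SK, -0.47 for RN7SL1, -0.24 for RN7SL2, 0.41 for RMRP and -0.07 for RPPH1, and genes called fell from 298 to 265 higher and from 692 to 575 lower. DESeq2 called 904 higher and 1199 lower. Adding the second entry's pairs changed no call of the 5 RNAs (297 genes higher and 693 lower in all).

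Without 1 library in turn, log2 fold changes ran from -0.12 to 0.31 for 7SK, -0.60 to 0.15 for RN7SL2, -0.35 to 0.16 for RPPH1, 0.017 to 0.62 for RMRP and -0.73 to 0.064 for 7SL summed. Ratios of mean shares ran from 0.901 to 1.20 for 7SK, 0.658 to 1.05 for RN7SL2, 0.991 to 1.49 for RMRP, 0.784 to 1.08 for RPPH1 and 0.810 to 1.02 for the 5 together. RN7SL1 kept its direction. Without both libraries with high RN7SL3, added after seeing the data, 7SK (-0.27) and RMRP (-0.20) reversed, also as ratios of shares (0.840 and 0.881), and RPPH1 (-0.59) passed the threshold. That choice of libraries itself favoured lower values. The causes were not tested.

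For the lists without 1 library in turn, calls ran from 0 to 2 lower for other RNA polymerase III RNAs (median -0.45 to -0.012), 0 to 2 higher and 0 to 1 lower for RNA polymerase II snRNAs (median -0.04 to 0.24), 0 to 2 higher for subunits (median 0.04 to 0.13), 0 to 1 higher for factors (median 0.04 to 0.09), 0 to 1 higher for signal recognition particle proteins, 0 to 1 higher for RNase P and MRP proteins (median 0.11 to 0.17), and 0 to 1 higher and 0 to 2 lower for copies. Without both libraries with high RN7SL3 there were 2 lower other RNA polymerase III RNAs (median -0.49), 2 higher and 1 lower snRNA, 2 higher subunits (median 0.033), 2 higher factors, 1 higher signal recognition particle protein, 1 higher RNase P and MRP protein and 2 higher copies. DESeq2 called 3 other RNAs and 2 snRNAs lower, 2 copies higher and 4 lower, 1 signal recognition particle protein and 1 RNase P and MRP protein higher. At least 100 counts in every library left 0 lower other RNAs and 0 copies either way (median of copies 0.060), with a median of 0.10 for RNase P and MRP proteins. Without a count filter the median of other RNAs was -0.12, 2 copies were lower and 1 RNase P and MRP protein was higher. The replicate block left 0 copies either way, and library size only 0 lower. Medians with library size only or upper quartile were 0.034 and 0.035 for factors and 0.12 and 0.12 for RNase P and MRP proteins. Medians of 7SK proteins stayed within -0.02 to 0.03 without 1 library in turn. Depth limits RNAs under 1 CPM, such as RNU6ATAC.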

Other observations

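The genes of 3 of the RNAs lie close to a protein gene on the other strand, which are named here after their values were seen. Between RN7SL1 and RPS29, a ribosomal protein gene, lie 101 bases, between RMRP and CCDC107 272 bases, and between RPPH1 and PARP2, a DNA repair enzyme, 207 bases. RPS29 was at 145 ± 9.79 CPM in controls and 156 ± 14.8 CPM in induced cells (SD, n = 3), a log2 fold change of 0.11 (SE 0.09, edgeR adjusted p = 0.588). CCDC107 was lower in 3 of 3 induced libraries, at 4.27 ± 0.302 and 3.51 ± 0.319 CPM (SD, n = 3), with -0.28 (SE 0.12, edgeR adjusted p = 0.261). In CPM, 26.3% of all tested genes had groups without overlap. PARP2 had 0.18 (SE 0.09, edgeR adjusted p = 0.349).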
